A study of Mus musculus with 6 samples.

Results

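The matrix metalloproteinases (MMPs), the ADAM and ADAMTS proteases and the tissue inhibitors of metalloproteinases (TIMPs) were examined in RNA from cells sorted as muscle pericytes. Members were the rows of the deposited gene table whose symbol was Mmp, Timp, Adam or Adamts followed by a number and at most 1 letter, which gave 79 of 53715 genes. They comprised 23 Mmp, 33 Adam, 19 Adamts and 4 Timp genes. A member was called expressed when it reached 1 CPM (estimated counts scaled to a fixed library total) in at least 3 of the 6 libraries, and 52 did.

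The cells came from the gastrocnemius and soleus of wild-type male C57BL/6J mice aged 14 weeks and were gated as CD146+CD45-CD31-. In 3 mice (stimulated) electrical stimulation had made the calf muscles contract 40 times, in 20 lengthening (eccentric) and 20 shortening (concentric) contractions within about 10 minutes, and tissue was taken 3 hours later. The other 3 mice (sham) were not stimulated. The question was which transcripts of the sorted cells differed after this single bout. The stated group sizes make each library 1 mouse, and nothing else in the labels describes how the mice were paired or batched.

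Metalloproteinases are zinc enzymes that cut extracellular matrix and cell surface proteins. MMPs degrade collagens, basement membrane and other matrix, ADAMs mostly shed the outer parts of membrane proteins, and ADAMTS enzymes act on proteoglycans, procollagens and other secreted proteins. TIMPs bind the active site of these enzymes, and around capillaries the balance of the enzymes and their inhibitors governs how endothelial cells and pericytes remodel their shared basement membrane.

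The libraries held 17520338 to 23709220 estimated reads. Although the gate excluded CD45 and CD31, the 10 endothelial marker genes summed to 1930.3 to 2989.3 CPM in the stimulated and 3211.8 to 8126.6 CPM in the sham libraries. The 10 pericyte markers summed to 159.6 to 380.7 CPM after stimulation and 319.3 to 678.5 CPM in sham. All 10 markers of either list were detected in every library and had lower means after stimulation. Lymphocyte markers were also present, at 1936 to 2268.1 CPM in the stimulated libraries and at 334.2 to 2124.3 CPM in the sham libraries, the 334.2 being sham replicate 2. That library also had the highest endothelial, pericyte, smooth muscle, macrophage and fibro-adipogenic marker means of the 6. In such mixed material, fewer cells of a type and less RNA per cell cannot be told apart.

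**Figure D1:**
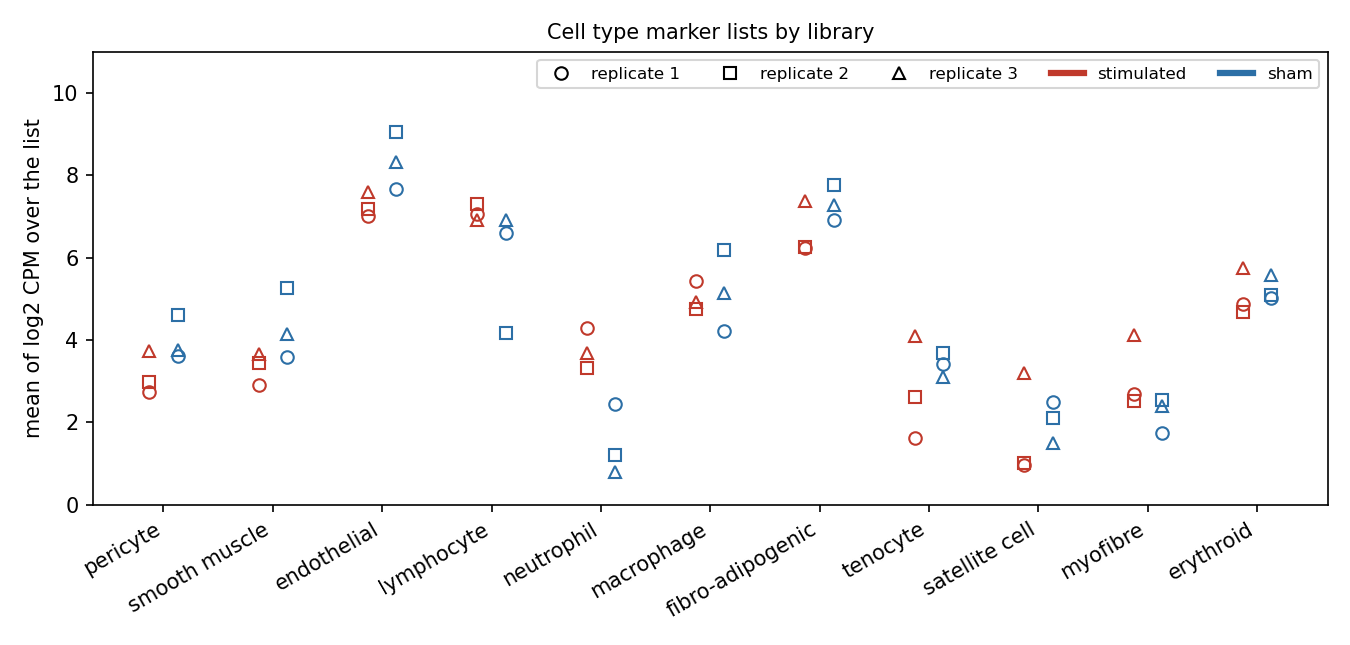
Mean log2 CPM over each list of cell type markers (y axis) in the 3 stimulated (red) and 3 sham (blue) libraries, with the symbol giving the replicate. Endothelial markers stood between 7 and 7.6 after stimulation and 7.67 and 9.04 in the sham libraries, and neutrophil markers between 3.32 and 4.28 and between 0.79 and 2.44.

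Of the 52 expressed members, 15 were Mmp, 16 Adam, 17 Adamts and 4 Timp genes, and 43 of them reached 1 CPM in all 6 libraries. The 27 others peaked at 0.345 to 2.4 CPM. They included the collagenases Mmp13, Mmp1a and Mmp1b, the stromelysin Mmp10, matrilysin (Mmp7), the von Willebrand factor protease Adamts13 and 17 Adam genes, many of them known from testis. Adamts13 was just outside the rule, with 1.93 and 1.43 CPM in stimulated replicate 2 and sham replicate 1 and 0.486 to 0.872 CPM in the others. Adam18, Adam30, Adamts8 and Timp1 were just inside it, with 3 libraries each. Timp1 passed through the 3 stimulated libraries alone, so that the rule itself favoured a difference in that gene.

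Levels can be compared between genes only per transcript length, for which TPM (the length-corrected share of a library's transcripts) was summed over the transcripts of each gene. The inhibitors Timp3 and Timp4 had the highest mean TPM of the 52, at 6.46 and 5.54. Timp3 is bound to the matrix, and Timp4 is known from heart, muscle and fat. Timp3 had 3.77, 3.34 and 6.81 TPM in stimulated replicates 1 to 3 and 6.26, 14.5 and 4.15 TPM in sham replicates 1 to 3, so the groups overlapped. The sheddases Adam15 and Adam10 averaged 2.84 and 2.04 TPM, the proteoglycanase Adamts1 1.98 TPM, the inhibitor Timp2 1.67 TPM and the gelatinase Mmp2 1.53 TPM. Short transcripts weigh in this order. A 945-base transcript held 73.0% of the TPM of Timp4 and 27.5% of its reads. For Mmp2 a 674-base one held 64.0% and 18.2%, and for Adam15 a 418-base one held 24.1% and 3.94%. Neighbours in this order did not differ beyond their spread, since the SD over the sham libraries was 5.45 TPM for Timp3, 6.1 TPM for Timp4, 3.22 TPM for Adam15, 0.933 TPM for Adam10 and 1.95 TPM for Adamts1. Sham replicate 2 had the highest TPM of the 6 libraries for each of the 12 members with the highest means. By CPM scaled between libraries (TMM), it was not the highest for Adam10 (124 against 125 CPM in sham replicate 3). Nor was it for Adam17 (65.6 against 92.5 CPM in stimulated replicate 1). Stimulated replicate 2 exceeded it for Adam19 (110 against 72.8 CPM) and Adamts2 (55.3 against 44.1 CPM). For the others it was also the highest by CPM.

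**Figure D2:**
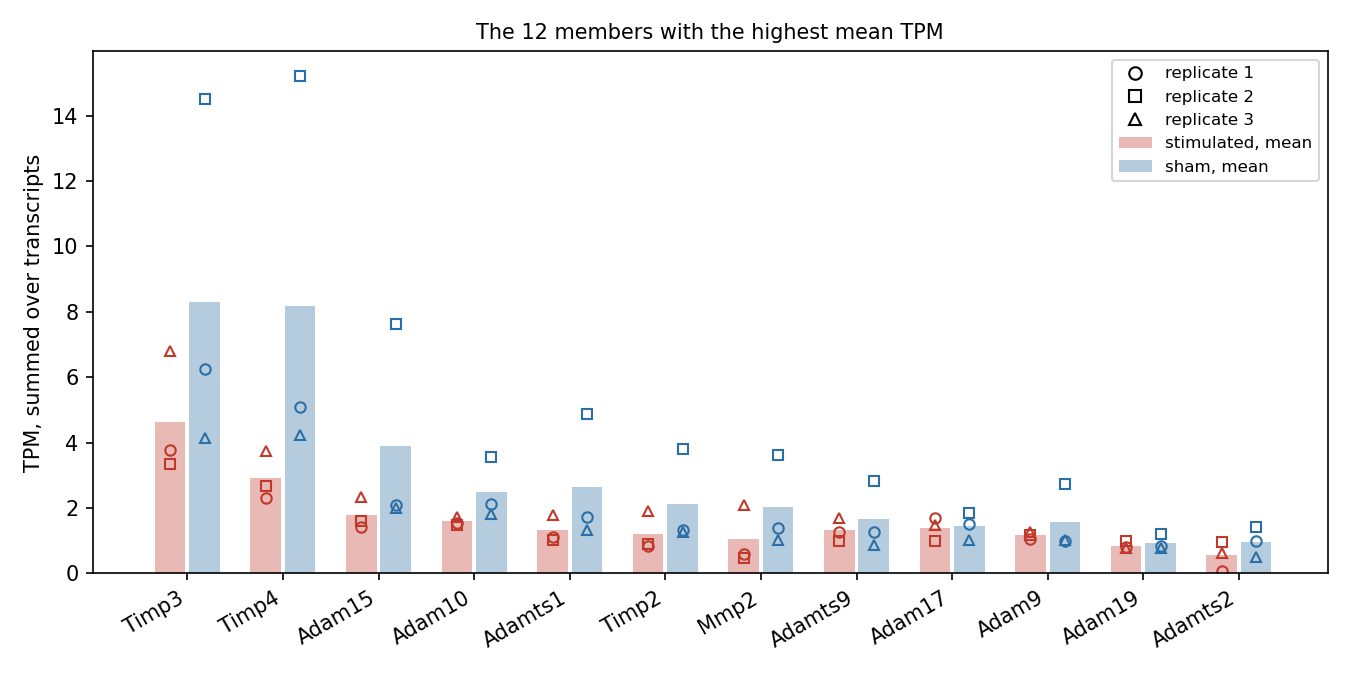
TPM summed over transcripts (y axis) for the 12 members with the highest mean, as means of 3 libraries (bars) with each library as a point. Timp3 and Timp4 lead, and the square in blue (sham replicate 2) lies at the top for each gene, at 14.5 TPM for Timp3 and 15.2 TPM for Timp4. By CPM scaled between libraries it was not the highest for Adam10, Adam17, Adam19 and Adamts2.

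No member passed the test of stimulated against sham. The quasi-likelihood test of edgeR, adjusted by Benjamini-Hochberg over all 26559 genes tested, called 0 of 52 expressed members and 0.0% of all genes higher, and likewise lower. At an unadjusted p under 0.05, 13 of the 52 were counted, 6 with higher and 7 with lower means after stimulation. This was 11.5% and 13.5% of the members, where the background was 2.64% of all genes higher and 4.41% lower, and 25.0% against 7.05% in either direction. The 6 higher members include Timp1, which met the expression rule through the stimulated libraries alone, so the rule favoured its being counted. With the members below the expression rule included, 14 of 79 had such a p, 62 of the 79 being tested, and the added member passed the count filter through the stimulated libraries alone. DESeq2 called 1 member, Mmp15, and 1.14% of the genes to which it gave an adjusted p, while limma voom called 0 members and 0 genes. These counts were not stable when single libraries were left out. The 6 higher members became 2 when either stimulated replicate 2 or sham replicate 1 was left out, and 3 when the third mouse of either group was. The 7 lower members became 2 without stimulated replicate 2, 3 without sham replicate 2 and 12 without sham replicate 3. The share of all genes with an unadjusted p under 0.05 in either direction moved too, from 7.05% to 3.95%, 3.97% and 11.4% in those same 3 fits. Groups did not overlap in 9 of 52 members, 4 higher and 5 lower, or 17.3%, where 12.0% of all genes had groups that did not overlap (6.12% higher, 5.89% lower). Timp1 is among these 4 as well. With 3 mice a group the smallest two-sided p of an exact permutation test is 0.1, so no single gene was tested that way. The median log2 fold change over the members was -0.15, against -0.02 over all genes tested.

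**Figure D3:**
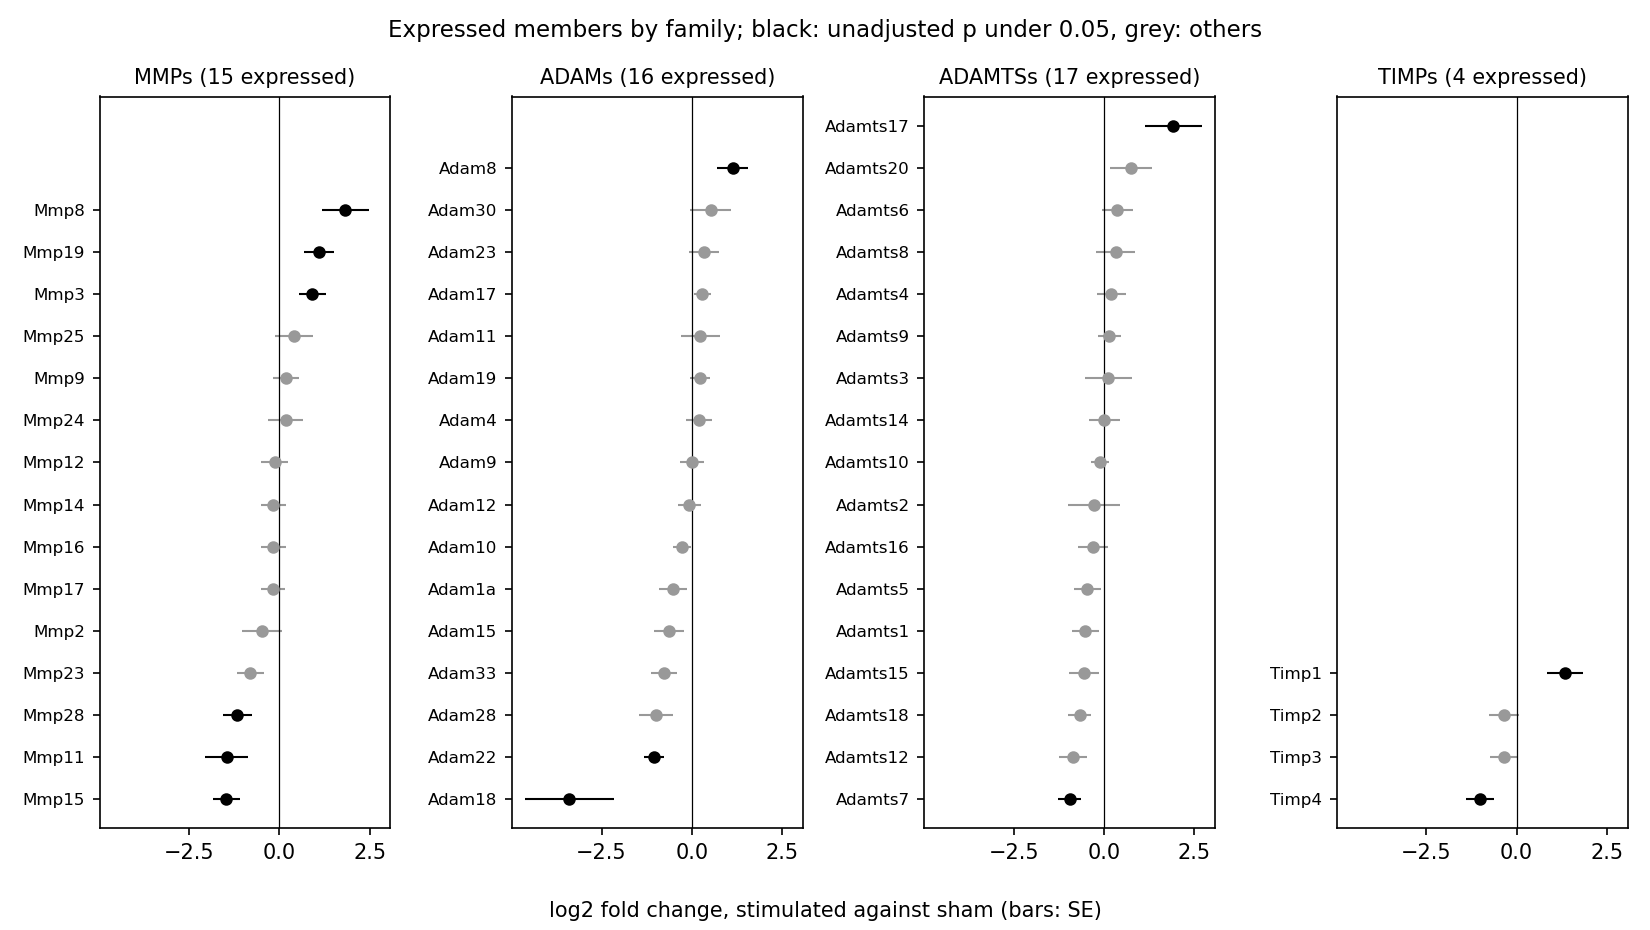
Fitted log2 fold change of stimulated against sham (x axis, bars SE) for each expressed member, by family. Black points are the 13 members with an unadjusted p under 0.05; Mmp8 at 1.83 and Adamts17 at 1.92 lie farthest right and Adam18 at -3.39 farthest left.

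The collagenase Mmp8, which neutrophils store in granules, had the largest positive log2 fold change of the MMPs (chromosome 9, 7558456 to 7568485, GRCm38). It stood at 6.85, 2.96 and 5.79 CPM in stimulated replicates 1 to 3 and at 2.35, 1.73 and 0.263 CPM in sham replicates 1 to 3. By CPM every stimulated library was above every sham library. By TPM the groups overlapped, with 0.0537 TPM in stimulated replicate 2 and 0.0698 and 0.0594 TPM in sham replicates 1 and 2. The log2 fold change was 1.83 (SE 0.66; edgeR adjusted p = 0.638). Its unadjusted p stayed under 0.05 in all 13 alternatives, with log2 fold changes of 1.35 to 2.38. Beside it, all 9 tested neutrophil markers of 10 listed had higher means, 8 with an unadjusted p under 0.05 and 0 with an adjusted one. Over all genes, 2.64% were higher at that unadjusted p. The neutrophil list summed to 127 to 217.6 CPM in the stimulated and 37.2 to 59.1 CPM in the sham libraries. Ly6g and Camp of that list were at 0 in at least 1 library. The part of these cells in the Mmp8 difference was not tested.

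Stromelysin 1 (Mmp3), which cleaves many matrix proteins and activates other MMPs, lies near Mmp8 on the same chromosome (7445822 to 7455975). It had 3.63, 6.41 and 4.99 CPM after stimulation and 1.78, 3.41 and 2.84 CPM in sham. By CPM the groups did not overlap, although stimulated replicate 1 exceeded sham replicate 2 by little. By TPM they overlapped, with 0.107 and 0.139 TPM in stimulated replicates 1 and 3 and 0.155 TPM in sham replicate 2. The log2 fold change was 0.91 (SE 0.38; edgeR adjusted p = 0.691). The neighbouring macrophage elastase Mmp12 had 20.9, 13 and 14 CPM against 26.3, 16.8 and 9.4 CPM, with overlapping groups and a log2 fold change of -0.13 (SE 0.38). A retained-intron transcript of 4474 bases held 95.2% of the reads of Mmp12, so these values hardly measure its coding transcripts. Mmp3, Mmp8 and Mmp12 are the 3 expressed genes of a run of 10 Mmp genes on chromosome 9 (7272514 to 7699585), the other 7 being below the rule.

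The promoters of this run are shown because its 3 expressed genes share 1 stretch of the chromosome. RefSeq (GRCm38.p6) gave a promoter for 31 of the 52 expressed members, a window from 250 bases before to 50 bases after the start. The motif TGANTCA, a site of the stress-responsive AP-1 factors that reads the same on both strands, was searched. It was in 3 of the 31, namely Mmp3, Mmp12 and Adam19, or 9.68%, and in 8.97% of 27025 genes in the table. The 250 bases before the start follow on the plus strand, with the motif in capitals. In Mmp3 (chr9:7445572-7445821) its first base lies 46 bases before the start, and in the second of 2 Mmp12 starts (chr9:7347124-7347373) it lies 44 bases before. The Mmp8 window (chr9:7558179-7558428) holds no match.
Mmp3: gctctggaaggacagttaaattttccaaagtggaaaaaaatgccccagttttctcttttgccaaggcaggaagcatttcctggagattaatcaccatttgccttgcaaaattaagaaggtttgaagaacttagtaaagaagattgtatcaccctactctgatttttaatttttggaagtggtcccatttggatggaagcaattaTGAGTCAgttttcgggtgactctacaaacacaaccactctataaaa
Mmp12: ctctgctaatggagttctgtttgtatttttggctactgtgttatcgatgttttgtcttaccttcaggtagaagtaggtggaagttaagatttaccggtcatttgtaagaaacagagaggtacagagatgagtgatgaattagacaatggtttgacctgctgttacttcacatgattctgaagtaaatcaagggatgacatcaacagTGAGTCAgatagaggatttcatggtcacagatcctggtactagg
Mmp8: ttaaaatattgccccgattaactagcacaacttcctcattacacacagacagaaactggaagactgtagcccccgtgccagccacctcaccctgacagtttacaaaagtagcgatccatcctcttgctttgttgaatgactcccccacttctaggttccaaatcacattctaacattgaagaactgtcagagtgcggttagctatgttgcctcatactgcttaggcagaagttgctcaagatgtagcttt
A match is a description of the letters and not a measured site of binding.

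Mmp19, a secreted MMP of broad substrate range (chromosome 10, 128790910 to 128800824), had 22.1, 13.6 and 21.3 CPM after stimulation and 4.62, 13.9 and 8.19 CPM in sham. Stimulated replicate 2 and sham replicate 2 overlapped. Its log2 fold change was 1.09 (SE 0.41; edgeR adjusted p = 0.647). Its longest coding transcript, of 3402 bases, held 198.9, 120 and 334.5 estimated reads in the stimulated libraries against 58.8, 95.7 and 25.3 in sham, before any scaling for depth. The 2236-base coding transcript, which held 43.1% of the reads of Mmp19, had 122.3, 137.3 and 112.2 reads against 78.6, 148.4 and 81.2, with overlap.

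Mmp15, a membrane-type MMP anchored at the cell surface (ENSMUSG00000031790.8, chromosome 8, 95352268 to 95375080), had the smallest p of the members. It stood at 30.5, 39.8 and 47.8 CPM in the stimulated libraries and at 55, 155 and 118 CPM in the sham libraries. All stimulated libraries were below all sham libraries, sham replicate 1 being nearest to them. The means were 39.4 ± 8.67 and 109 ± 50.3 CPM (SD, n = 3), 2.77-fold lower after stimulation, with a log2 fold change of -1.47 (SE 0.38). The adjusted p was 0.482 by edgeR and 0.0339 by DESeq2, and over all alternatives it ranged from 0.0339 to 1. The unadjusted p was under 0.05 in all 13 alternatives, and the log2 fold change was -1.13 without sham replicate 2. In 10 of 10 endothelial markers the stimulated mean was lower, 8 with an unadjusted p under 0.05 and 0 with an adjusted one, with none at 0. Over all genes, 4.41% were lower at that unadjusted p. The endothelial markers summed to 1930.3 to 2989.3 against 3211.8 to 8126.6 CPM. All 10 pericyte, 5 smooth muscle and 8 fibro-adipogenic markers had lower stimulated means too. The tested lymphocyte, neutrophil and myofibre markers all had higher ones. The part of any of these cells in the Mmp15 difference was not tested.

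The other 5 membrane-type genes overlapped between groups. Mmp14, which activates pro-Mmp2 at the cell surface, had 18.5, 20.2 and 25.9 CPM against 13.4, 34.8 and 24.5 CPM, a log2 fold change of -0.17 (SE 0.35). Mmp16, Mmp17, Mmp24 and Mmp25 had log2 fold changes between -0.18 and 0.41. The gelatinases cut denatured collagen and type IV collagen of basement membrane. Mmp9 had 12.4, 9.71 and 16.6 CPM against 7.37, 17.2 and 9.5 CPM, a log2 fold change of 0.18 (SE 0.37). Mmp2 had 18.6, 18.3 and 70.7 CPM against 33.2, 75.3 and 42.1 CPM, a log2 fold change of -0.48 (SE 0.55). Its stimulated replicate 3 was near the highest sham library and the other stimulated libraries were below all sham libraries. Without stimulated replicate 3 the log2 fold change of Mmp2 was -1.44 (edgeR adjusted p = 0.596, and 0.596 to 1 over all alternatives), and without sham replicate 2 it was -0.06. Stimulated replicate 3 had the highest fibro-adipogenic sum of its group, 2557.2 CPM against 1039 and 1199.6 CPM, with sham at 1598.6 to 3402.5 CPM, and none of the 8 markers at 0. Its tenocyte sum was 334.2 CPM, against 38.2 and 77.4 CPM in the other stimulated libraries and 141 to 192.2 CPM in sham. That library also had the highest pericyte, smooth muscle, endothelial, satellite cell, myofibre and erythroid sums of its group. For pericyte markers these were 380.7 CPM against 159.6 and 209.6 CPM. Its lymphocyte, neutrophil and macrophage sums were not the highest. The part of these cells in the Mmp2 values was not tested.

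Mmp28, or epilysin, and stromelysin 3 (Mmp11) had lower means after stimulation. Mmp28 (chromosome 11, 83440768 to 83463071) had 9.38, 7.1 and 13.3 CPM after stimulation and 12, 32.8 and 22.3 CPM in sham, overlapping through stimulated replicate 3 and sham replicate 1. This gave a log2 fold change of -1.17 (SE 0.40; edgeR adjusted p = 0.617), and -0.78 without sham replicate 2. Mmp11 (chromosome 10, 75923222 to 75936496) had 3.79, 1.23 and 3.01 CPM against 4.84, 13.9 and 3.36 CPM, a log2 fold change of -1.46 (SE 0.60; edgeR adjusted p = 0.679). It was -0.61 without sham replicate 2 and -0.89 from summed transcript reads. A 335-base transcript annotated for nonsense-mediated decay held 77.3% of the TPM of Mmp11 and 17.3% of its reads.

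**Figure D4:**
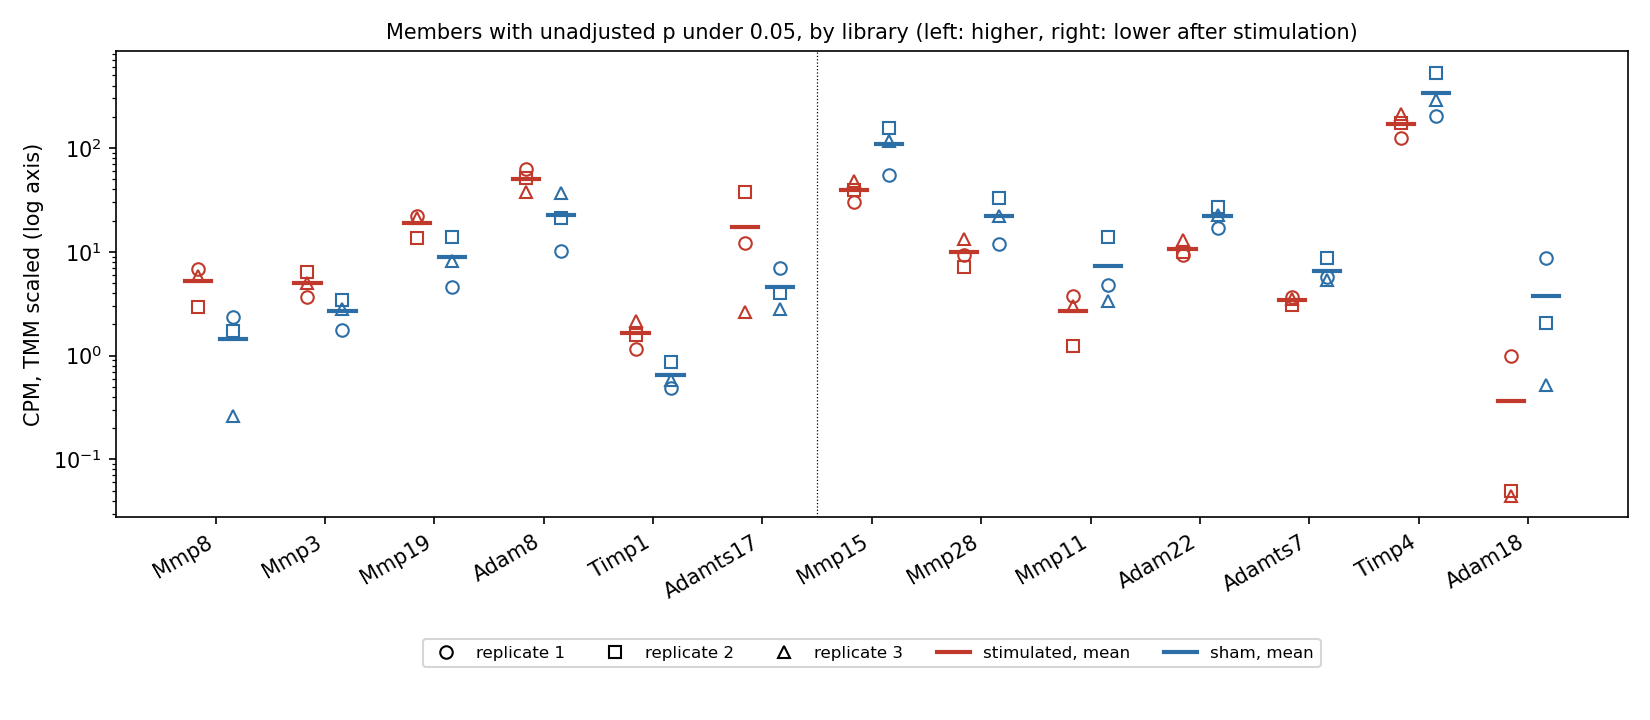
CPM scaled by TMM (y axis, log scale) in each library for the 13 members with an unadjusted p under 0.05, with stimulated in red, sham in blue, symbols for replicates and lines for means. The groups are apart for Mmp8, Mmp3, Adam8, Timp1, Mmp15, Adam22 and Adamts7 and overlap for the other 6; Adam8 is apart by 37.4 against 37.1 CPM.

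Among the ADAMs, Adam8 is a myeloid sheddase and was 1 of the 6 members with a higher mean at an unadjusted p under 0.05 (chromosome 7, 139978932 to 139992562). It had 62.6, 51.2 and 37.4 CPM in the stimulated libraries and 10.2, 21.3 and 37.1 CPM in the sham libraries. The lowest stimulated and the highest sham library were almost level. On the log2 scale the difference was 1.14 (SE 0.43; edgeR adjusted p = 0.661), and 0.78 without sham replicate 1. A transcript of 3100 bases held 650, 307.1 and 205.5 estimated reads in the stimulated libraries and 0, 1.03 and 64.3 in sham, while the 3117-base transcript held 0, 347 and 260.8 against 190.9, 228.3 and 190.2, before any scaling for depth. The transcripts differ by few bases in length, and how the estimate divides reads between them was not tested. The neutrophil marker sums given for Mmp8 were also higher in the stimulated libraries. In order of replicate they were 217.6, 127 and 154.4 CPM in the stimulated and 59.1, 47.1 and 37.2 CPM in the sham libraries. Their part was not tested. Macrophage markers summed to 404.8 to 617.5 CPM in the stimulated and 294.7 to 1045.3 CPM in the sham libraries, with none at 0.

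The general sheddases did not separate the groups. Adam17, which releases tumour necrosis factor and ligands of the epidermal growth factor receptor, had 92.5, 64.9 and 86 CPM against 61.2, 65.6 and 71.9 CPM, a log2 fold change of 0.29 (SE 0.24), and -0.01 from summed transcript reads. Adam10, which cleaves Notch and cadherins, had 83.1, 97.1 and 99.2 CPM against 84.6, 124 and 125 CPM, a log2 fold change of -0.26 (SE 0.25). Adam15, a sheddase with an integrin-binding domain, had 71, 97.7 and 125 CPM against 78.1, 250 and 130 CPM, a log2 fold change of -0.64 (SE 0.42), with the 250 CPM in sham replicate 2 and a value of -0.09 without it. Of 9 ADAMs listed by hand as active proteases, a list not checked against sequence and not complete, 4 had positive and 5 negative log2 fold changes, with a median of -0.07.

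Adam22 lacks a working protease site and is known as a neuronal receptor of the secreted protein Lgi1 (chromosome 5, 8072352 to 8368160). It had 9.27, 9.9 and 13 CPM after stimulation and 16.9, 26.9 and 22.7 CPM in sham, with no overlap. Its log2 fold change was -1.05 (SE 0.28; edgeR adjusted p = 0.504), and its unadjusted p was under 0.05 in all 13 alternatives, with values from -1.21 to -0.84. Its relatives Adam11 and Adam23 overlapped between groups, at 0.23 (SE 0.54) and 0.34 (SE 0.41) on the log2 scale. Adam18, a testis gene, had a fitted log2 fold change of -3.39 (SE 1.23; edgeR adjusted p = 0.638) that rested on few reads. Its CPM were 1, 0.0493 and 0.0442 against 8.66, 2.06 and 0.525, and a 301-base transcript held 19.7 estimated reads in sham replicate 1 and at most 3.9 in any other library. Without sham replicate 1 the value was -1.83, and without stimulated replicate 1 it was -6.12. Adam18 was not tested with summed transcript reads, where it fell below the filter.

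The proteoglycanases cut aggrecan and versican. Adamts9 had 164, 157 and 235 CPM against 122, 238 and 144 CPM, a log2 fold change of 0.14 (SE 0.32). Adamts1 had 104, 115 and 178 CPM against 118, 294 and 158 CPM, a log2 fold change of -0.52 (SE 0.38), and -0.05 without sham replicate 2. Adamts4 had 15.5, 20.9 and 25.0 CPM against 9.33, 28.9 and 15.4 CPM, which is 0.20 (SE 0.40) on the log2 scale. Adamts5, an aggrecanase, had 17.1, 16.4 and 35.8 CPM against 27.0, 43.2 and 25.6 CPM, or -0.47 (SE 0.37). None of the 7 proteoglycanases had an unadjusted p under 0.05, and their median was 0.14.

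Adamts7 and Adamts12 are related enzymes known to cleave cartilage oligomeric matrix protein, as some other members also do. Adamts7 (chromosome 9, 90163069 to 90208071) had 3.63, 3.1 and 3.49 CPM after stimulation and 5.73, 8.72 and 5.36 CPM in sham, with no overlap. This gave a log2 fold change of -0.95 (SE 0.32; edgeR adjusted p = 0.616). Adamts12 had 10.6, 9.66 and 18.1 CPM against 17, 35.8 and 16.8 CPM, with overlap and a log2 fold change of -0.86 (SE 0.39; edgeR adjusted p = 0.713). The procollagen N-propeptidases Adamts2, Adamts3 and Adamts14 trim fibrillar collagens, and their log2 fold changes lay between -0.28 and 0.12. Adamts2 had 3.11 CPM in stimulated replicate 1 and 30.6 to 55.3 CPM in the other 5 libraries, and its log2 fold change was 0.30 without that library. A 212-base transcript of Adamts2 with 0 to 5.75 reads per library held on average 72.9% of its TPM and 1.01% of its reads, and held none in stimulated replicate 1. Adamts17 had 12.1, 37.7 and 2.65 CPM against 6.93, 4.01 and 2.84 CPM. Its log2 fold change was 1.92 (SE 0.79; edgeR adjusted p = 0.676) in the deposited table and -0.42 from summed transcript reads, and 0.68 without stimulated replicate 2. In stimulated replicate 2 a 259-base transcript with 4 reads held 93.2% of the TPM of Adamts17.

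**Figure D5:**
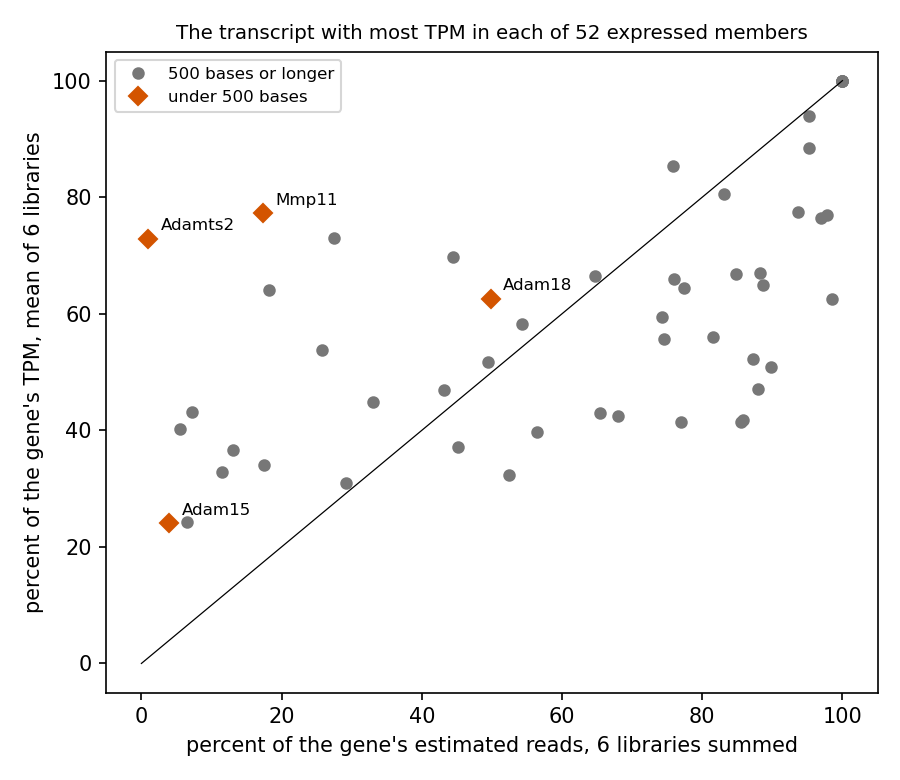
For each of the 52 expressed members, the transcript with the largest share of the gene's TPM, placed by its share of the gene's estimated reads (x axis, percent) and of TPM (y axis, percent), with the line of equality. The 4 transcripts under 500 bases (orange) lie above the line, Adamts2 farthest, at 1.01% of reads and 72.9% of TPM.

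The 4 inhibitors went different ways in their means. Timp1, the inducible secreted inhibitor (chromosome X, 20870166 to 20874735), had 1.16, 1.58 and 2.17 CPM after stimulation and 0.489, 0.867 and 0.578 CPM in sham. By CPM the groups did not overlap, at levels close to the expression limit. By TPM they overlapped, with 0.0637 TPM in stimulated replicate 1 and 0.0712 TPM in sham replicate 2. On the log2 scale the difference was 1.34 (SE 0.50; edgeR adjusted p = 0.647), and DESeq2 gave it no adjusted p. Timp4 (chromosome 6, 115241892 to 115252205) had 125, 173 and 215 CPM after stimulation and 204, 532 and 292 CPM in sham. Stimulated replicate 3 overlapped sham replicate 1. The means were 171 ± 45.3 and 343 ± 170.0 CPM (SD, n = 3). On the log2 scale this was -1.00 (SE 0.39; edgeR adjusted p = 0.668), and -0.53 without sham replicate 2. The endothelial, pericyte, smooth muscle and fibro-adipogenic markers given for Mmp15 had lower means after stimulation too, and their part was not tested. Timp3 had 314, 336 and 605 CPM against 388, 783 and 443 CPM, a log2 fold change of -0.36 (SE 0.38). Timp2, which also helps Mmp14 to activate pro-Mmp2, had 51, 68.1 and 126 CPM against 60.7, 153 and 99.8 CPM, a log2 fold change of -0.35 (SE 0.42). Without sham replicate 2 these values of Timp3 and Timp2 were 0.02 and 0.03.

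Within a library, the ratio of Timp RNA to Mmp, Adam and Adamts RNA does not depend on scaling between libraries. Every member was summed, expressed or not, including Adam22, which lacks a working protease site. Summed Timp TPM over summed Mmp, Adam and Adamts TPM was 0.406, 0.461 and 0.612 after stimulation and 0.557, 0.775 and 0.604 in the sham libraries. The groups overlapped. Timp1 made up 0.914, 1.03 and 0.885% of Timp TPM after stimulation and 0.285, 0.212 and 0.243% in sham, and Timp4 33.2, 38.1 and 29.8% against 40, 45.3 and 43.8%, without overlap in either. Timp1 met the expression rule through the stimulated libraries alone, so its share is a description. Its own TPM overlapped, at 0.0637, 0.0716 and 0.112 against 0.0362, 0.0712 and 0.0235 TPM. Timp3 made up 54.1, 47.8 and 54.1% against 49.3, 43.1 and 42.9%, with overlap. The share of Timp4 leans on a 945-base transcript that held 73.0% of its TPM and 27.5% of its reads.

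Exons of 16 of the 52 expressed members overlap exons of another gene on the opposite strand, and the sources used here do not say whether reads were assigned by strand. The pairs include Timp3 with Syn3, Timp4 with Syn2, Adamts7 with Tbc1d2b, Mmp11 with Chchd10 and Mmp19 with Tmem198b. The partner means were 5.89 and 7.87 CPM for Syn3 and 13.8 and 12.3 CPM for Syn2 in the stimulated and sham libraries. Tbc1d2b had 44.8 and 53.8 CPM, where Adamts7 had only 3.41 and 6.6 CPM. Chchd10 had 10.1 and 7.28 CPM, where Mmp11 had 2.68 and 7.37 CPM. Tmem198b had 11.3 and 14.6 CPM, where Mmp19 had 19 and 8.91 CPM. The part of the partners in these members' values was not tested. The partner of Mmp28, 1700020L24Rik, had 1.01 and 2.39 CPM, where Mmp28 had 9.94 and 22.3 CPM. The partner of Adam8, Gm16201, had 3.48 and 2.4 CPM, where Adam8 had 50.4 and 22.9 CPM. Adam1a also overlaps exons of Gm42878 and Mapkapk5 on the same strand, which a strand setting would not separate. Mapkapk5 had 29.7 and 32.3 CPM, where Adam1a had 4.97 and 7.11 CPM.

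Other genes of the same network were read from 4 lists, and none passed the test. Of 21 regulators and partners of the enzymes, 7 had positive and 14 negative log2 fold changes, with 1 higher and 3 lower at an unadjusted p under 0.05, where the background was 2.64% and 4.41%. The list median was -0.20, against -0.02 over all genes. Tspan15, a tetraspanin that escorts Adam10, had 13.5, 15.8 and 16 CPM against 21.8, 49.9 and 41.5 CPM, a log2 fold change of -1.32 (SE 0.32; edgeR adjusted p = 0.434). Frmd8, which stabilises the iRhom and Adam17 complex at the cell surface, had 35, 40.1 and 41.4 CPM against 19, 25.2 and 27.5 CPM, a log2 fold change of 0.70 (SE 0.24; edgeR adjusted p = 0.617). Basigin (Bsg), an inducer of MMPs, had 54, 66.4 and 60 CPM against 70.4, 171 and 104 CPM, a log2 fold change of -0.93 (SE 0.33; edgeR adjusted p = 0.632). In all 3 of these genes, named for the smallest p of the list, the groups did not overlap. Over the whole list this held for 14.3% of the genes, against 12.0% of all genes tested.

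Of 13 tested ADAMTS-like and astacin-type genes of 14 listed, 2 had positive and 11 negative log2 fold changes, 3 of them lower at an unadjusted p under 0.05, with a median of -0.75. For this list and the next ones, the background over all genes was 2.64% higher and 4.41% lower at that p, with a median of -0.02. The procollagen C-proteinase Bmp1 had 15.1, 19.9 and 27.1 CPM against 30.6, 48.7 and 37.2 CPM, a log2 fold change of -0.91 (SE 0.30; edgeR adjusted p = 0.592). Papilin (Papln) had -1.18 (SE 0.38) with groups that overlapped, and Mep1a, at 0.133 to 3.82 CPM, had -2.59 (SE 0.84). Of 15 matrix substrates, 3 had positive and 12 negative values, with 1 higher and 3 lower at that p and a median of -0.66. Von Willebrand factor (Vwf), the substrate of Adamts13 made by endothelium, had 93.7, 121 and 106 CPM against 161, 358 and 213 CPM, a log2 fold change of -1.19 (SE 0.33; edgeR adjusted p = 0.521). The laminin chain Lamb1 of basement membrane had 41.6, 34.6 and 67.2 CPM against 74.5, 138 and 94.7 CPM, or -1.10 (SE 0.34; edgeR adjusted p = 0.574). The 1 higher gene was thrombospondin 1 (Thbs1), a matricellular protein and substrate of Adamts1, with 155, 159 and 287 CPM against 66.7, 116 and 81.1 CPM, or 1.19 (SE 0.34; edgeR adjusted p = 0.541). The groups did not overlap in these 3 substrates, which were named for the smallest p of their list. Over that list this was 20.0% of the genes, against 12.0% of all genes tested. Of 18 tested membrane substrates of ADAMs (of 19 listed), 6 had positive and 12 negative values, 4 of them lower at that p, with a median of -0.20. Those with the smallest p were the endothelial genes Kdr, Cdh5 and Tek, at -2.04 (SE 0.40), -1.27 (SE 0.35) and -1.34 (SE 0.39), which also stand on the endothelial marker list.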

How the data were processed

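RNA was sequenced from 6 libraries, 3 per group, prepared by a low-input, strand-keeping total RNA kit, per the labels' protocols. The submitters' processing notes list Salmon 0.8.2, bcl2fastq 2.17.1.14, edgeR, Trimmomatic 0.36 and R 3.5.1 with the build GRCm38, without settings. The authors deposited estimated counts per gene and, per the file headers, TPM and estimated counts for 135181 transcripts per library. In 100% of the 14096 genes above 0.1 TPM in every library the deposited gene count over TPM was constant within 1% across libraries, apart from 1 factor per library, so the gene values are length-scaled, and a few reads on a short transcript weigh heavily.

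Estimated counts were rounded and filtered (filterByExpr, minimum count 10, minimum total 15, leaving 26559 genes). They were scaled by TMM and tested with the robust quasi-likelihood F test of edgeR 4.0.16 (R 4.3.3), group being the only term. SEs were derived from each log2 fold change and its F value. CPM in the text are scaled by TMM, except in the expression rule, its limits and the values given beside them. Replicates differed by a chi-square per gene of 30.4 to 112, so none was a duplicate. Alternatives were DESeq2 1.42.0, limma 3.58.1 voom, RLE factors, other filters, each library left out, a replicate block, transcript counts summed by gene, and a threshold of 0.1. The fits were tested on simulated counts. Members, gene lists and naming rule were chosen with earlier results of these data known. The text names with values per library members with an unadjusted p under 0.05, the 3 with most TPM per family, all TIMPs, a list of well-studied members, those whose value moved by over 1 with summed counts, and up to 3 genes by p per related list. Adamts12, Mmp12, Adam11, Adam23 and Adam6b were named after their values were seen. Coordinates are GENCODE M21 (GRCm38), matched by 99.8% of gene identifiers. Protein sequences were not used here.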

Additional observations from a re-analysis of the deposited data

How the results depend on the processing

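The direction held under every alternative that tested the gene in 17 of 26 members named by rule. From summed transcript reads the log2 fold change of Adamts17 was -0.42, that of Adam17 -0.01 and that of Mmp9 -0.23. Leaving out single libraries gave ranges that crossed 0 for Adamts2 (-1.03 to 0.30), Adamts4 (-0.11 to 0.73), Adamts9 (-0.07 to 0.49), Mmp9 (-0.05 to 0.62), Mmp14 (-0.46 to 0.19), Timp2 (-0.81 to 0.03) and Timp3 (-0.73 to 0.02). The number of genes past the adjusted threshold, 0 with edgeR, was 227 with DESeq2 (1 of them a member), 3 with RLE factors, 109 with no low-count filter, 1 with summed transcript reads, 3 at a threshold of 0.1 and 0 to 1 with a library left out. Without a library, members with an unadjusted p under 0.05 numbered 2 to 5 higher and 2 to 12 lower, while 3.93% to 11.4% of all genes had such a p in either direction, and the median log2 fold change over all expressed members was -0.30 to -0.01. The causes were not tested.

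Deviations of same-numbered libraries from their group means correlated at 0.317, -0.161 and 0.128 for replicates 1, 2 and 3. With 3 libraries a group, these values cannot decide whether the numbers pair the mice. With the replicate number as a block, 0 genes passed, 5 members were higher and 7 lower at an unadjusted p under 0.05, and the median was -0.10. In that fit 23.1% of the members and 6.75% of all genes had such a p in either direction. Stimulated replicates 1 and 3 correlated best with their own number, and stimulated replicate 2 with sham replicate 3, at 0.226. Depth was 17520338 to 23709220 estimated reads. The common biological coefficient of variation was 0.4, over 3 mice a group.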

Other observations

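Of the 27 members below the expression rule, 10 passed the count filter of the test, and 1 of these, Adam6b, had an unadjusted p under 0.05. It passed that filter through the 3 stimulated libraries alone, with 6, 3 and 4 estimated reads in sham, so the filter itself favoured a difference and its values are a description. Adam6b lies in the immunoglobulin heavy chain region (chromosome 12, 113489511 to 113492057). It had 0.948, 0.887 and 0.575 CPM in the stimulated and 0.267, 0.162 and 0.21 CPM in the sham libraries, a log2 fold change of 1.87 (SE 0.66; edgeR adjusted p = 0.63). The groups did not overlap, at no more than 19.3 estimated reads in any library, and reads shared with its copy Adam6a make the value uncertain. Lymphocyte markers had higher means in 10 of 10 genes, none at 0, and summed to 1936 to 2268.1 CPM in the stimulated and 334.2 to 2124.3 CPM in the sham libraries. Their part in the Adam6b values was not tested.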
